A study of Sus scrofa with 24 samples.

Results

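Hyaluronan is a long unbranched sugar polymer of the extracellular matrix, and the 9 genes followed here act on it in pig preadipocytes of subcutaneous (BF) and intramuscular (IMF) fat. HAS1, HAS2 and HAS3 encode the synthases, HYAL1, HYAL2 and CEMIP act in its breakdown, CD44 is its main surface receptor, and VCAN (versican) and TNFAIP6 (TSG-6) encode secreted proteins that bind it in the matrix. The members were chosen by gene symbol and no limit on their values was applied, but the list was drawn up with earlier results of the same libraries known. Their values, differences and adjusted p are therefore given as a description of these libraries. Of the 9 genes, 8 had a row among the 25462 genes of the table and 7 were tested. HAS3 stayed under the limit for testing, and HYAL1 was not analysed here.

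Hyaluronan is made at the cell surface by a synthase that joins 2 nucleotide sugars in turn and pushes the growing chain out of the cell. It is cut outside the cell and in lysosomes, and its size and its binding proteins set how it behaves in the matrix. In fat and muscle stroma it is a major part of the soft matrix around fibroblast-like cells, and versican, TSG-6 and the heavy chains that TSG-6 transfers onto hyaluronan hold it in larger assemblies.

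The study used primary preadipocytes, the fibroblast-like precursors of fat cells, of 6-day-old Yorkshire piglets to compare how the depots differentiate. BF cells came from the subcutaneous fat of the back and IMF cells from the longissimus dorsi muscle. Each depot was sampled on days 0, 2, 4 and 8 with 3 replicates, so that BF-0d, BF-2d, BF-4d, BF-8d, IMF-0d, IMF-2d, IMF-4d and IMF-8d held 3 libraries each, 24 in all. Cells of day 0 had not been induced. The others received IBMX (which blocks phosphodiesterases), dexamethasone (a glucocorticoid) and insulin until day 2. Insulin followed until day 4 and growth medium until day 8, so the medium before sampling differed between the days. The labels do not say which replicate came from which piglet or culture, so the spread between replicates may be partly technical. Values are FPKM, which the authors computed per gene and library. They are scaled by gene length and carry no read counts. Differences and their standard errors (SE) are on the scale log2(FPKM + 1), which understates the changes of low genes. Calls needed both an absolute difference of at least 1 and an adjusted p under 0.01, from limma with Benjamini-Hochberg adjustment over the 16135 tested genes. A lack of overlap between groups was common, at 24.2% to 61.4% of all tested genes depending on the pair of groups.

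The libraries held 9985 to 10858 genes at 1 FPKM or more, with a total of 307967 to 385768 FPKM. BF-2d replicate 3 stood apart from its group, at -17.2 on the first principal component against 26.5 and 27.2 for the other BF-2d libraries, and where a called member result of day 2 in BF moved without it, the value without it is given. The cells are labelled adipocytes, yet ADIPOQ and PLIN1, which define mature adipocytes, were under 1 FPKM in every library. The summed level of the 6 adipocyte markers, carried mostly by LPL where it was highest, was 8.6 to 10.4 FPKM in BF-0d, 22.9 to 93.2 in BF-2d, 181 to 318 in BF-4d and 281 to 620 in BF-8d. In IMF it was 2.64 to 3.41 on day 0, 5.01 to 7.32 on day 2, 11.2 to 14.1 on day 4 and 96.5 to 143 on day 8. The 5 stromal markers in the table summed to 8080 to 9030 FPKM in BF-0d, 4251 to 8343 in BF-2d, 2675 to 4095 in BF-4d and 3665 to 4126 in BF-8d. In IMF the stromal sum was 8858 to 9244 on day 0 and 4547 to 5114 on day 8, with 8279 to 9254 between them. Of 6 myogenic markers MYOD1 and MYF5 were at 0 throughout and only DES passed 1 FPKM, with sums of 29.7 to 45.4 FPKM in IMF-0d, 4.54 to 4.91 in BF-0d and at most 13.2 in the other groups. The 4 endothelial markers summed to at most 5.2 FPKM and the 6 immune markers to at most 18.9, with PTPRC, CSF1R and CD163 under 1 FPKM. The part of these markers in the results was not tested. In such bulk libraries fewer cells of a type and less RNA per cell cannot be told apart.

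The hyaluronan genes did not move as a block. HAS2, the main synthase transcript, was higher in IMF before induction and on day 2. CEMIP was higher in BF from day 0 until day 4, and TNFAIP6 from day 2 until day 8. CEMIP and TNFAIP6 rose in BF within 2 days of induction and in IMF between day 4 and day 8. CD44 rose in BF over the 8 days and in IMF after day 4, and no pairwise difference of HYAL2 or VCAN was called.

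**Figure D1:**
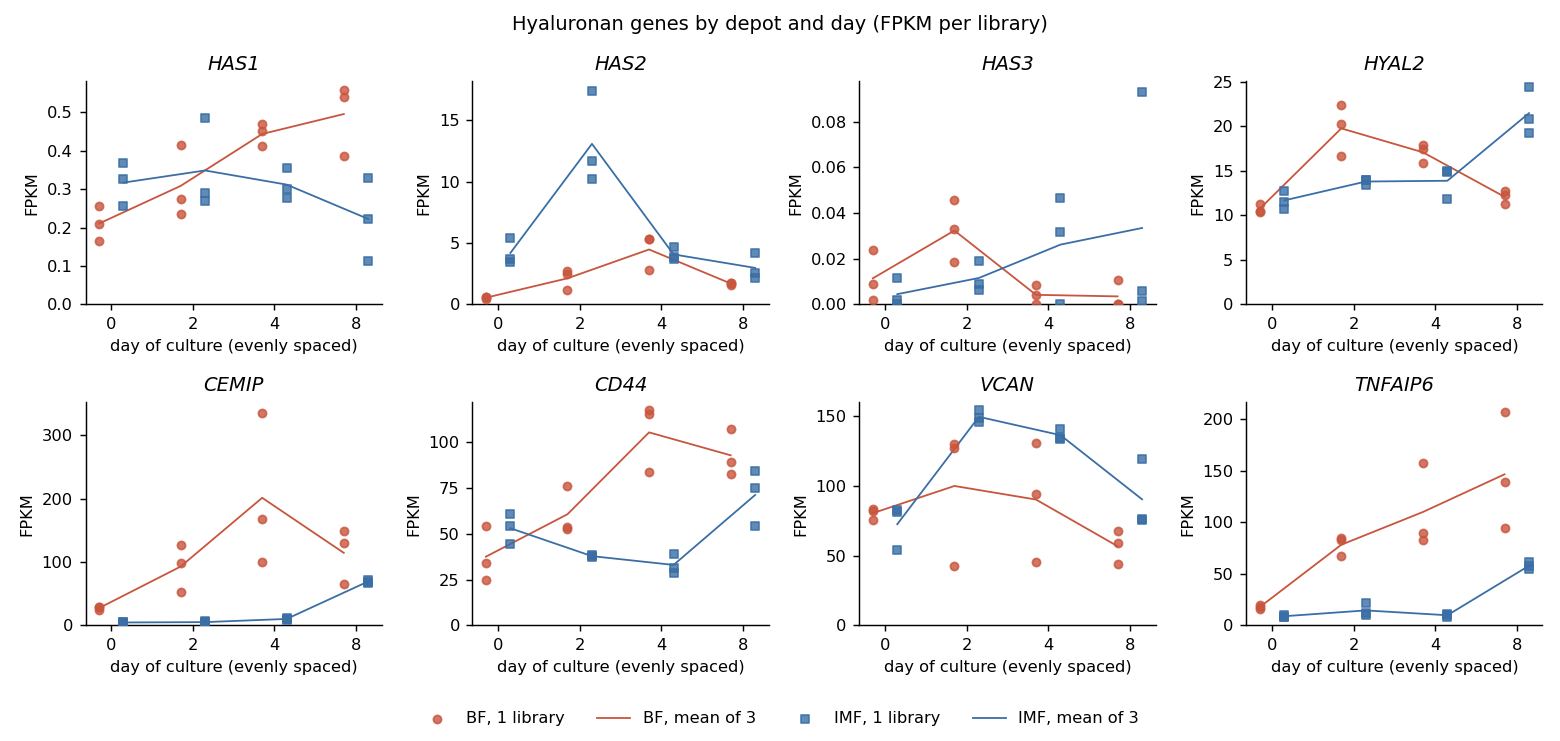
FPKM of the 8 hyaluronan genes in the table (vertical axes, 1 panel per gene, each on its own scale) on days 0, 2, 4 and 8 of culture (horizontal axes, evenly spaced and not to scale in time). Each point is 1 library, circles for BF and squares for IMF, and lines join the means of 3. CEMIP in IMF stays at 4.14 to 10.9 FPKM until day 4 and reaches 67.0 to 71.8 on day 8, while HAS2 in IMF peaks at 10.2 to 17.4 on day 2.

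HAS2 supplied most of the synthase transcript. Its share of the summed FPKM of HAS1, HAS2 and HAS3 was 68.9 to 92.1% in the 12 BF libraries and 88.6 to 97.4% in the 12 IMF libraries. It was lowest in BF-0d, at 68.9 to 73.4%. HAS2 (ENSSSCG00000005992) lies on chromosome 4, 17583154 to 17613524 on the plus strand of Sscrofa11.1, and a non-coding locus on the minus strand overlaps it. The sources used here do not say whether counting used strand, so reads of the pair cannot be told apart.

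In uninduced BF cells HAS2 stood at 0.571, 0.605 and 0.452 FPKM. The BF-2d libraries held 2.46, 1.19 and 2.72, those of BF-4d 5.36, 2.76 and 5.3, and those of BF-8d 1.58, 1.75 and 1.76. Each BF group was clear of the day before it, upwards until day 4 and downwards to day 8. In IMF the same gene stood at 5.41, 3.48 and 3.67 FPKM on day 0 and at 11.7, 17.4 and 10.2 on day 2. It was at 3.71, 3.87 and 4.64 on day 4 and at 2.59, 4.15 and 2.17 on day 8. The 3 libraries of IMF-2d were the highest of all 24, and those of IMF-4d and IMF-8d overlapped. By group mean the order was IMF-2d, BF-4d, IMF-0d, IMF-4d, IMF-8d, BF-2d, BF-8d and BF-0d, where only the step below IMF-2d and the step above BF-0d separated neighbours whose libraries did not overlap.

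HAS2 was higher in IMF than in BF on day 0 by 1.73 (SE 0.23, adjusted p = 2.09e-05), from means of 4.19 ± 1.07 and 0.543 ± 0.0802 FPKM (SD, n = 3). On day 2 the difference was 2.18 (SE 0.23, adjusted p = 1.58e-06), and without BF-2d replicate 3 it was 2.32 (adjusted p = 8.61e-07). On day 4 the HAS2 libraries of the depots overlapped. On day 8 the difference of 0.53 (SE 0.23, adjusted p = 0.0831) was not called. With only the compared libraries fitted, the call of HAS2 on day 2 was lost (adjusted p = 0.0123). The myogenic marker DES was also high in IMF-0d, at 29.6, 36.2 and 45.3 FPKM against 4.67, 4.5 and 4.88 in BF-0d. In IMF-2d, where HAS2 was highest, DES stood at 3.96, 3.03 and 4.56, against 0.109, 0.764 and 3.22 in BF-2d, a difference of 1.25 (adjusted p = 0.00393). Within IMF, DES thus went down between days 0 and 2, when HAS2 went up. On day 4, when the HAS2 libraries overlapped, the DES means were 11.7 FPKM in IMF and 0.0311 in BF. The part of DES in the HAS2 differences was not tested.

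Over time HAS2 rose in IMF between days 0 and 2 by 1.43 (SE 0.23, adjusted p = 0.000631), and all 31 alternatives of the closing part kept that call. Between days 2 and 4 its mean in IMF went from 13.1 ± 3.77 to 4.07 ± 0.494 FPKM (SD, n = 3), a difference of -1.44 (SE 0.23). This call was kept in 20 of the 31 alternatives and in 0 of the 6 that left out a compared library. In BF the differences of HAS2 were 0.98 between days 0 and 2 (adjusted p = 0.00296; 0.84 without BF-2d replicate 3), 0.81 between days 2 and 4 (adjusted p = 0.0164) and -0.98 between days 4 and 8 (adjusted p = 0.00575). None of the 3 was called, the first and the last because their size was just under 1 on this scale. In FPKM the HAS2 mean rose 3.91-fold in BF and 3.12-fold in IMF between days 0 and 2, so the IMF call does not mark a larger fold. The change between days 2 and 4 differed by depot, by -2.25 (SE 0.33, adjusted p = 0.000432), with HAS2 values going down in IMF and up in BF. Without BF-2d replicate 3 it was -2.40 (adjusted p = 0.000352). This call was lost with only the 12 compared libraries fitted (adjusted p = 0.0166).

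HAS1 and HAS3 were near the floor. HAS1 (chromosome 6, 58303274 to 58313486, plus strand) lay between 0.114 and 0.559 FPKM in all 24 libraries and was called in none of the contrasts. Its highest group was BF-8d, at 0.559, 0.387 and 0.541 FPKM, and its lowest BF-0d, at 0.255, 0.21 and 0.165. These groups did not overlap, and the difference was 0.30 (SE 0.08, adjusted p = 0.00298), small on a scale with 1 FPKM added. HAS3 (chromosome 6, 17844974 to 17870331, minus strand) never passed 0.0932 FPKM and was listed at 0 in 4 libraries. It overlaps TANGO6 on the same strand.

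CEMIP, a secreted protein needed for hyaluronan breakdown by fibroblasts, had the widest range of the members, from 4.14 to 336 FPKM. In BF it stood at 23.5, 28.6 and 29.3 FPKM on day 0 and at 127, 98.5 and 53.0 on day 2. On day 4 it was at 99.9, 168 and 336, and on day 8 at 149, 64.7 and 130. All BF libraries after induction were above those of day 0, but the groups of days 2, 4 and 8 overlapped and spread widely. In IMF the levels of CEMIP were 4.53, 4.69 and 4.31 FPKM on day 0 and 4.93, 6.18 and 4.14 on day 2. They were 10.9, 10.3 and 9.1 on day 4 and 69.2, 71.8 and 67.0 on day 8. Until day 4 every IMF library was below every BF library, and on day 8 the IMF libraries lay inside the range of BF-8d. The order of means was BF-4d, BF-8d, BF-2d, IMF-8d, BF-0d, IMF-4d, IMF-2d and IMF-0d, and the steps from IMF-8d to BF-0d, from BF-0d to IMF-4d and from IMF-4d to IMF-2d were those without overlap.

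CEMIP rose in BF between days 0 and 2 by 1.65 (SE 0.34, adjusted p = 0.000964), and by 2.01 without BF-2d replicate 3. That call was lost with only the compared libraries fitted (adjusted p = 0.0208). The later BF differences of 1.02 between days 2 and 4 (adjusted p = 0.0347, or 0.67 without BF-2d replicate 3) and -0.72 between days 4 and 8 (adjusted p = 0.15) were not called. In IMF the rise of CEMIP came between days 4 and 8, by 2.66 (SE 0.34, adjusted p = 6.22e-06), a mean of 10.1 ± 0.920 against 69.4 ± 2.42 FPKM (SD, n = 3) or 6.86-fold. It was lower in IMF than in BF by -2.35 on day 0 (adjusted p = 5.58e-05), by -3.87 on day 2 (adjusted p = 1.26e-07) and by -4.01 on day 4 (adjusted p = 2.15e-08). Without BF-2d replicate 3 the difference on day 2 was -4.23. On day 8 it was -0.63 (SE 0.34, adjusted p = 0.162) and not called. The interaction between days 4 and 8, the IMF change less the BF change, was 3.38 (SE 0.48, adjusted p = 7.06e-05).

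Some markers of other cell types or states moved with CEMIP and some against it. Of the adipocyte list, LPL rose in BF between days 0 and 2 by 3.54 (adjusted p = 0.000138) and in IMF between days 4 and 8 by 4.21 (adjusted p = 1.82e-05), and made up most of the list's sum in BF-4d, BF-8d and IMF-8d. CEBPA rose in BF between days 0 and 2 by 1.67 (adjusted p = 2.31e-05) but fell in IMF between days 4 and 8 by 1.33 on the log2 scale (adjusted p = 0.000193). FABP4 fell in BF between days 0 and 2 by 1.15 (adjusted p = 0.00101), and PPARG fell in BF over the 8 days by 1.04 (adjusted p = 0.0061). Like CEMIP, 4 of these markers were lower in IMF on some days, FABP4 on days 0 and 8, PPARG on days 0 and 2, CEBPA on day 2 and LPL on days 2 and 4. The stromal sum was carried by the collagens and the proteoglycan DCN, and COL1A1 fell in BF over the 8 days by 2.77 (adjusted p = 6.03e-08) and in IMF between days 4 and 8 by 1.09 (adjusted p = 0.00352). PDGFRA of the same list went the other way and with CEMIP, with a rise in BF between days 0 and 2 of 1.86 (adjusted p = 1.08e-05) and IMF minus BF differences of -1.41 on day 2 (adjusted p = 0.000352) and -1.24 on day 4 (adjusted p = 0.00037). In IMF between days 4 and 8 the PDGFRA difference of 0.63 (adjusted p = 0.0511) was not called, and PDGFRB stood at means of 98.1 and 97.7 FPKM. The myogenic marker DES fell over both intervals in which CEMIP rose, in BF between days 0 and 2 by 1.49 (adjusted p = 0.000625) and in IMF between days 4 and 8 by 2.24 (adjusted p = 7.42e-06), and it was called higher in IMF on all 4 days. The endothelial marker PECAM1 fell in BF between days 0 and 2 by 1.13 (adjusted p = 2.56e-05). The part of these markers in the changes of CEMIP was not tested.

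The balance of CEMIP and HAS2 transcripts differed between the depots. FPKM of CEMIP were 18.6 to 94.3 times those of HAS2 in each of the 12 BF libraries. In IMF the ratio was 0.837 to 1.35 on day 0, 0.356 to 0.422 on day 2 and 1.96 to 2.94 on day 4. It reached 17.3 to 30.8 on day 8, and of the IMF groups that of day 8 was the only one to overlap the BF range. These are ratios of transcript levels per length, not of enzyme activity.

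The member most like CEMIP was TNFAIP6, with a Pearson r of 0.92 over the 24 libraries on the log2(FPKM + 1) scale, 0.80 within the 12 BF and 0.92 within the 12 IMF libraries. Libraries of 1 group share their treatment, so r is a description. CEMIP (ENSSSCG00000038929) lies on chromosome 7, 49622534 to 49792547 on the plus strand, and TNFAIP6 (ENSSSCG00000023716) on chromosome 15, 862013 to 881352 on the minus strand. The 250 bases before each annotated RefSeq start on Sscrofa11.1 are shown because the pair had the most similar pattern among the members (CEMIP chr7:49622284-49622533, plus strand, and TNFAIP6 chr15:881353-881602, minus strand). They are written 5′ to 3′ and end at the base before the start, with matches to the motifs searched in capitals.

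CEMIP: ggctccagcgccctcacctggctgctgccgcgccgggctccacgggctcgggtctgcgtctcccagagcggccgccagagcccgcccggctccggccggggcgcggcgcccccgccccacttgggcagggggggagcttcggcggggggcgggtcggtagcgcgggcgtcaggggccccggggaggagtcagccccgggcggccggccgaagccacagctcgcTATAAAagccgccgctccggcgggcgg
TNFAIP6: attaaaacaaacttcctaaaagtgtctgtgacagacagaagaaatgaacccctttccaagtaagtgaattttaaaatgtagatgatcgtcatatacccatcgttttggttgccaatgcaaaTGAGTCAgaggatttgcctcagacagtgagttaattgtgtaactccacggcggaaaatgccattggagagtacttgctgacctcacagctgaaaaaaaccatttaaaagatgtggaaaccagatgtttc

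The windows were unlike in composition, with 80.8% G and C for CEMIP and 38.8% for TNFAIP6. Searched on both strands were the TATA box (TATAAA), AP-1 (TGANTCA), the cAMP response element (TGACGTCA), C/EBP (TTNNGCAA), the glucocorticoid receptor half-site (AGAACA) and NF-kB. The CEMIP window held a TATA box from position -27, counted back from the start, a motif found in 9.77% of 19556 windows of that length before annotated genes. The TNFAIP6 window held an AP-1 match from position -129, found in 5.27% of windows. The cAMP response element was in 1.7%, C/EBP in 8.22%, the half-site in 10.3% and NF-kB in 5.91% of windows, and these 4 were in neither sequence. A match is a description of letters, not a bound site.

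HYAL2, a hyaluronidase anchored at the cell surface, kept to a narrow range of 10.4 to 24.4 FPKM. In BF it stood at 10.5, 10.4 and 11.3 FPKM on day 0 and at 20.3, 22.4 and 16.7 on day 2. It was at 15.9, 17.5 and 17.9 on day 4 and at 12.3, 11.2 and 12.8 on day 8. The IMF libraries held 11.5, 10.7 and 12.8 on day 0, 14.0, 14.0 and 13.4 on day 2, 15.0, 14.8 and 11.8 on day 4 and 20.8, 19.3 and 24.4 on day 8. HYAL2 was thus highest on day 2 in BF and on day 8 in IMF. The order of means was IMF-8d, BF-2d, BF-4d, IMF-4d, IMF-2d, BF-8d, IMF-0d and BF-0d, with gaps only between BF-4d and IMF-4d and between IMF-2d and BF-8d.

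No pairwise difference of HYAL2 reached the size for a call, though several were larger than the spread. It was 0.82 between days 0 and 2 in BF (SE 0.12, adjusted p = 2.84e-05), 0.93 without BF-2d replicate 3, and -0.47 between days 4 and 8 in BF (adjusted p = 0.00814). Between days 4 and 8 in IMF it was 0.60 (adjusted p = 0.000531), and between IMF and BF it was -0.48 on day 2 (adjusted p = 0.00513) and 0.78 on day 8 (adjusted p = 3.65e-05). The change between days 4 and 8 differed by depot, by 1.06 (SE 0.16, adjusted p = 0.000155), which was called. Without IMF-4d replicate 3 this value was 0.96 and without IMF-8d replicate 3 it was 0.97, both too small for a call. HYAL2 (ENSSSCG00000011405) lies on chromosome 13, 32805220 to 32813684 on the minus strand, where it overlaps TUSC2 on the same strand, and HYAL1 is 4514 bases away.

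CD44, the receptor through which cells bind and take up hyaluronan, lies on chromosome 2, 25788699 to 25884209 on the minus strand (ENSSSCG00000013297). In BF it stood at 54.2, 33.9 and 24.6 FPKM on day 0, 52.6, 76.1 and 53.6 on day 2, 83.7, 115 and 117 on day 4 and 82.6, 89.2 and 107 on day 8. The BF libraries of days 4 and 8 were all above those of days 0 and 2. In IMF it stood at 54.1, 60.8 and 44.3 FPKM on day 0, 38.5, 37.7 and 37.3 on day 2, 28.5, 39.1 and 31.5 on day 4 and 74.9, 54.5 and 84.5 on day 8. The IMF-2d libraries were below those of IMF-0d, and the IMF-8d libraries were above those of IMF-4d. In the order of means, BF-4d, BF-8d, IMF-8d, BF-2d, IMF-0d, IMF-2d, BF-0d and IMF-4d, only IMF-0d and IMF-2d were neighbours without overlap.

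CD44 rose in BF over the 8 days by 1.35 (SE 0.23, adjusted p = 6e-05), from a mean of 37.5 ± 15.1 to 93 ± 12.7 FPKM (SD, n = 3). Its steps of 0.73 (adjusted p = 0.0189) and 0.79 (adjusted p = 0.0168) over the first 2 BF intervals were not called. In IMF, CD44 rose between days 4 and 8 by 1.08 (SE 0.23, adjusted p = 0.00112), but the size was 0.98 without IMF-4d replicate 1 and 0.94 without IMF-8d replicate 3, under the limit. On day 4 it was lower in IMF by -1.64 (SE 0.23, adjusted p = 9.89e-06). On day 2 the difference was -0.65 (adjusted p = 0.0422), and on days 0 and 8 the depots overlapped. The interaction between days 4 and 8 was 1.25 (SE 0.32, adjusted p = 0.0101), just past the limit of p, and 8 of the 31 alternatives called it.

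VCAN, a large proteoglycan that binds hyaluronan through its N-terminal domain, lies on chromosome 2, 91682177 to 91811674 on the plus strand (ENSSSCG00000014136). In BF the libraries held 83.8, 81.7 and 75.9 FPKM on day 0, 130.2, 42.6 and 127 on day 2, 131, 45.2 and 94.6 on day 4 and 44.1, 67.4 and 58.9 on day 8. Replicate 2 was the low library of both BF-2d and BF-4d, and BF-2d replicate 3 was close to replicate 1. In IMF they held 82.5, 81.4 and 53.9 on day 0, 149, 155 and 146 on day 2, 134, 134 and 141 on day 4 and 75.7, 120 and 76.1 on day 8. The IMF-2d and IMF-4d libraries were above all others, and every IMF library of days 2, 4 and 8 was above the BF libraries of its day. On those days the depots did not overlap for 36.6%, 54.6% and 48.9% of all tested genes. VCAN was called in none of the contrasts. The largest pairwise difference, between days 0 and 2 in IMF, was 1.06 (SE 0.35, adjusted p = 0.0719), and between depots it was 0.74 on day 2 (adjusted p = 0.129, or 0.99 without BF-2d replicate 3), 0.72 on day 4 (adjusted p = 0.109) and 0.65 on day 8 (adjusted p = 0.162). With only IMF-0d and IMF-2d fitted, the first of these was called (adjusted p = 0.00935).

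TNFAIP6, which transfers heavy chains onto hyaluronan and crosslinks it, had the highest mean of the members in BF-8d, at 146 FPKM. In BF-8d replicate 1 CEMIP was higher, at 149 against 93.9. In BF TNFAIP6 stood at 19.5, 15.6 and 17.8 FPKM on day 0 and at 83.1, 84.3 and 66.9 on day 2. It was at 89.9, 82.6 and 157 on day 4 and at 93.9, 206 and 139 on day 8. Every induced BF library was above those of day 0, and neighbouring days overlapped after day 2. In IMF it stood at 9.96, 8.37 and 8.12 FPKM on day 0, 11.6, 21.5 and 10.2 on day 2 and 10.1, 10.7 and 8.53 on day 4. On day 8 the IMF libraries reached 61.1, 57.8 and 54.3, still below each BF library of days 2, 4 and 8. The order of means was BF-8d, BF-4d, BF-2d, IMF-8d, BF-0d, IMF-2d, IMF-4d and IMF-0d, and only IMF-8d was clear of both its neighbours.

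TNFAIP6 rose in BF between days 0 and 2 by 2.08 (SE 0.26, adjusted p = 7.15e-06), and by 2.19 without BF-2d replicate 3. Its further BF differences of 0.43 and 0.40 were not called (adjusted p = 0.245 and 0.317). In IMF it rose between days 4 and 8 by 2.45 (SE 0.26, adjusted p = 7.31e-07), a mean of 9.77 ± 1.12 against 57.7 ± 3.41 FPKM (SD, n = 3) or 5.91-fold. Over the 8 days the rise was 2.92 in BF (adjusted p = 2.46e-08) and 2.58 in IMF (adjusted p = 2.47e-07). It was lower in IMF by -2.42 on day 2 (adjusted p = 2.01e-06, and -2.52 without BF-2d replicate 3), by -3.31 on day 4 (adjusted p = 7.88e-09) and by -1.26 on day 8 (adjusted p = 0.000897). The last call was lost without BF-8d replicate 2 (-0.97). On day 0 the TNFAIP6 difference of -0.92 (adjusted p = 0.0215) was not called. The libraries did not overlap on that day, as for 38.1% of all tested genes. The interaction between days 4 and 8 was 2.05 (SE 0.37, adjusted p = 0.000651). The markers given beside CEMIP moved over the same days, in both directions, and their part in the changes of TNFAIP6 was not tested.

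The comparison of successive days asked which of these genes changed as the cells differentiated. Over the 6 intervals, 7 of 42 member-by-interval pairs (16.7%) were called, against 3.49% of all gene-by-interval pairs. In BF they were CEMIP and TNFAIP6 between days 0 and 2, 2 of 7 members beside 6.59% of all tested genes, and 0 of 7 over the next intervals, where limma called 3.35% of genes between days 2 and 4 and 2.93% between days 4 and 8. At an unadjusted p under 0.05 there were 3 of 7 members over each of these 2 intervals, beside 36.5% and 32.2% of all tested genes. In IMF they were HAS2 between days 0 and 2 (1 of 7, beside 0.787% of genes), HAS2 between days 2 and 4 (1 of 7, beside 0.0372%, the call lost whenever a compared library was left out) and CEMIP, CD44 and TNFAIP6 between days 4 and 8 (3 of 7, beside 7.25%). The median differences of the 7 members over the 3 successive intervals were 0.82, 0.43 and -0.47 in BF, where those of all genes were -0.04, 0.02 and -0.05. In IMF they were 0.23, -0.13 and 0.60, beside -0.01, 0.02 and -0.07 for all genes. Between days 0 and 8, which shares its libraries with the intervals, CEMIP, CD44 and TNFAIP6 were called in BF (3 of 7, beside 13.7% of genes) and CEMIP and TNFAIP6 in IMF (2 of 7, beside 9.04%), together 5 of 14 pairs beside 11.4%. CEMIP rose over the 8 days by 1.96 in BF (adjusted p = 8.32e-05) and by 3.67 in IMF (adjusted p = 7.92e-08).

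**Figure D2:**
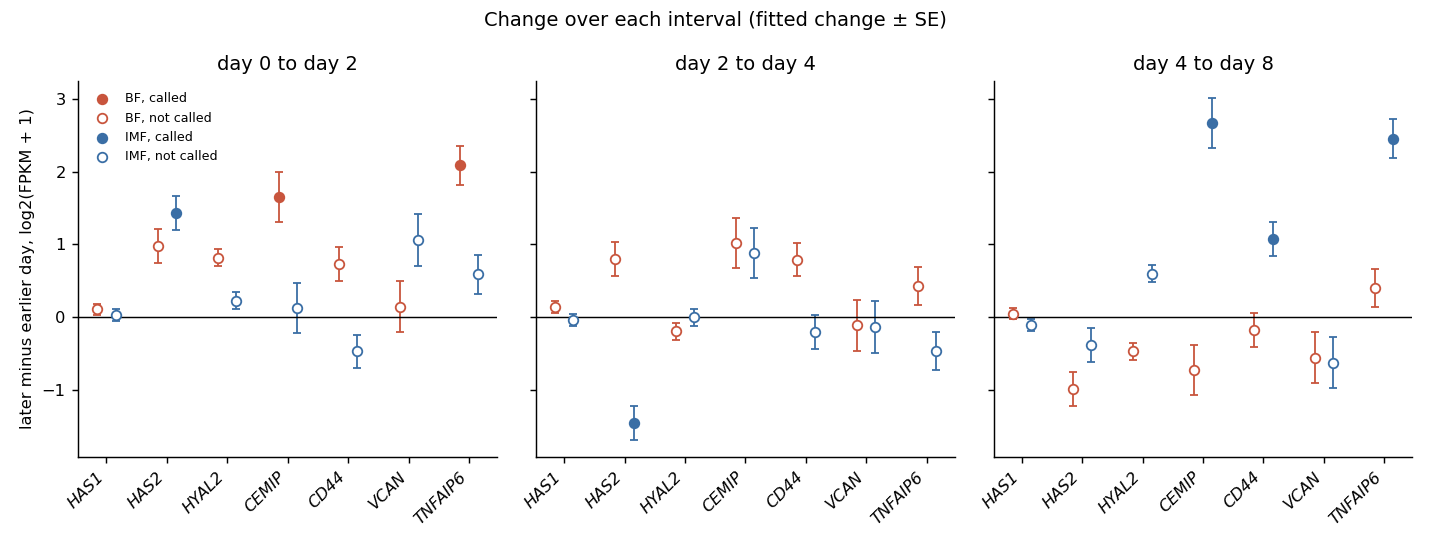
Fitted change of the 7 tested hyaluronan genes over each interval on the log2(FPKM + 1) scale (vertical axis, later minus earlier day, bars 1 SE), BF and IMF side by side, with filled points for called changes. Between days 0 and 2 the called changes are CEMIP (1.65) and TNFAIP6 (2.08) in BF and HAS2 (1.43) in IMF, and between days 4 and 8 they are CEMIP (2.66), CD44 (1.08) and TNFAIP6 (2.45) in IMF.

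IMF and BF cells of the same day were compared to ask how the depots differed at each stage. Of 28 member-by-day pairs 9 were called (32.1%), beside 6.4% of all gene-by-day pairs. On day 0 they were HAS2, higher in IMF, and CEMIP, lower (2 of 7, beside 2.58% of genes). On day 2 HAS2 was higher and CEMIP and TNFAIP6 were lower in IMF (3 of 7, beside 4.74%). On day 4 CEMIP, CD44 and TNFAIP6 were lower (3 of 7, beside 11.3%), and on day 8 TNFAIP6 alone was called (1 of 7, beside 6.96%). The median difference of the members was 0.11 on day 0, -0.48 on day 2, -0.29 on day 4 and -0.29 on day 8, beside 0.02, 0.07, 0.07 and 0.04 for all genes.

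**Figure D3:**
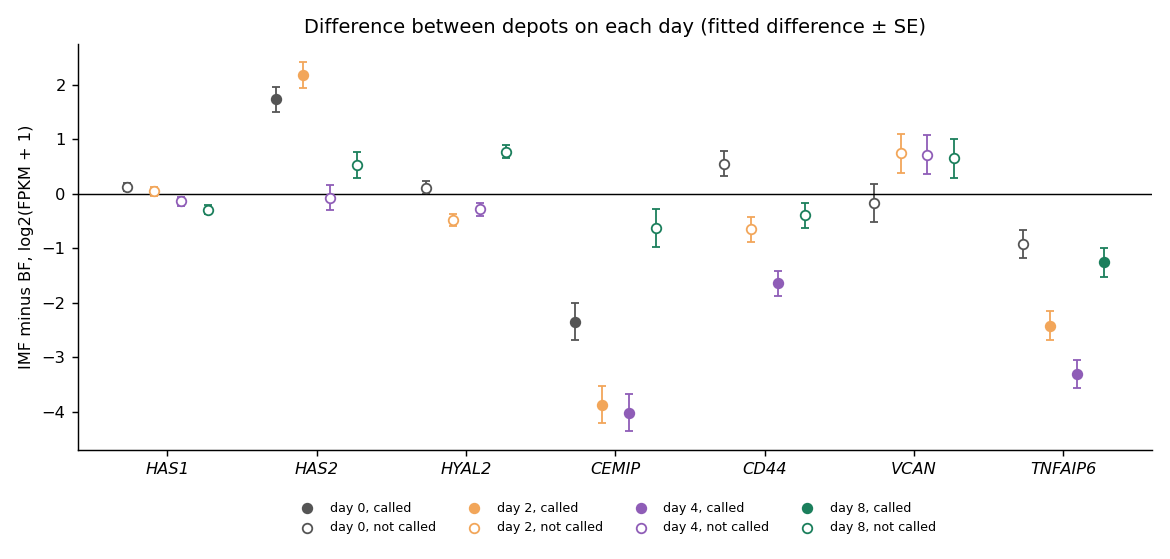
Fitted difference between depots (IMF minus BF, vertical axis, log2(FPKM + 1), bars 1 SE) for the 7 tested hyaluronan genes on days 0, 2, 4 and 8, with filled points for called differences. HAS2 lies at 1.73 and 2.18 on days 0 and 2, and CEMIP at -2.35, -3.87 and -4.01 on days 0, 2 and 4.

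The interaction asked whether a gene changed by a different amount in IMF than in BF. It was called for 4 of 21 member-by-interval pairs (19%), beside 3.96% of all such pairs. Between days 0 and 2 it was called for 0 of 7 members in limma (2.45% of genes), although 4 of 7 were under 0.05 unadjusted, as were 30.2% of all genes, with HYAL2, CEMIP, CD44 and TNFAIP6 at adjusted p-values of 0.0232, 0.0413, 0.02 and 0.013. Between days 2 and 4 HAS2 was called (1 of 7, beside 3.06%), and between days 4 and 8 HYAL2, CEMIP and TNFAIP6 were (3 of 7, beside 6.39%). Without BF-2d replicate 3, 7 of the 21 member-by-interval pairs were called, with some genes counted over more than 1 interval. The share of all genes in that fit was not computed. TNFAIP6 between days 0 and 2 then stood at -1.60 (adjusted p = 0.0063) and CEMIP at -1.88 (adjusted p = 0.00633), and CD44 between days 4 and 8 was called with them.

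Genes around the members were read from a list of 40 other genes of hyaluronan supply, breakdown, binding and matrix turnover, of which 38 were in the table and 30 were tested. Of their 180 gene-by-interval pairs 21 were called (11.7%, beside 3.49% of all genes) and of 120 gene-by-day pairs between depots 17 (14.2%, beside 6.4%). In the interactions 13 of 90 were called (14.4%, beside 3.96%), and between days 0 and 8 the count was 18 of 60 (30%, beside 11.4%).

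Among the 7 genes that make the nucleotide sugars, UAP1 and UGP2 were called in at least 1 pairwise contrast, as were 23.7% of all tested genes. UAP1, which makes UDP-N-acetylglucosamine, stood at 8.64, 9.42 and 10.2 FPKM in BF-0d and at 47, 54.7 and 52.4 in BF-8d. It was at 11.1, 11.3 and 11.1 in IMF-4d and at 29.6, 35.3 and 27.9 in IMF-8d. UAP1 rose in BF between days 2 and 4 by 1.31 (adjusted p = 7.5e-05) and in IMF between days 4 and 8 by 1.38 (adjusted p = 9.29e-06), and on day 4 it was lower in IMF by -1.82 (adjusted p = 2.01e-07). The BF call of UAP1 was lost with only the compared libraries fitted. UGP2, which makes UDP-glucose, rose in BF over the 8 days by 1.10 (adjusted p = 5.52e-06). UGDH, whose product UDP-glucuronic acid is the other building block, was called in no pairwise contrast.

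Among 6 tested breakdown genes the lysosomal enzymes HEXA and GUSB were higher in IMF than in BF on day 8. On that day 6.96% of all tested genes were called and 4.31% were called higher. GUSB stood at 39.1, 32.9 and 44.7 FPKM in IMF-8d and at 14.7, 15.9 and 14.6 in BF-8d, a difference of 1.30 (SE 0.21, adjusted p = 6.45e-05). HEXA differed by 1.23 (adjusted p = 0.000206), a call lost without IMF-8d replicate 3. CEMIP2, a membrane protein related to CEMIP, went the other way from CEMIP in IMF, with a fall between days 4 and 8 of -1.02 (SE 0.23, adjusted p = 0.00179) from 10.7, 10.6 and 11 to 4.13, 6.07 and 4.41 FPKM. Median ratio scaling, quantile normalization and leaving out IMF-8d replicate 1 or 3 each took its size under the limit. Of the 3 tested receptors HMMR, also a gene of dividing cells, was higher in IMF on day 0 by 1.32 (adjusted p = 0.00783) and fell in IMF between days 4 and 8 by 1.16 on this scale (adjusted p = 0.00874). Of all tested genes 1.87% were called higher in IMF on day 0 and 3.08% lower over that IMF interval. Of the 31 alternatives 18 kept the first of these HMMR calls and 14 the second.

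Among genes of hyaluronan assemblies, the link proteins HAPLN3 and HAPLN4 rose in IMF between days 4 and 8, by 1.95 (adjusted p = 2e-07) and 1.10 (adjusted p = 2.07e-05). HAPLN3 stood at 3.6, 3.34 and 3.34 FPKM in IMF-4d and at 15.4, 12.8 and 21.2 in IMF-8d. It overlaps ACAN in the annotation. ACAN, the aggregating proteoglycan aggrecan, went the other way over that interval, from 2.83, 3.03 and 3.47 to 0.155, 0.206 and 0.187 FPKM, a change of -1.79 (adjusted p = 7.54e-06). Of the 3 tested genes that bind hyaluronan in the matrix, 2 were thus called higher and 1 lower, beside 7.25% of all genes called. ACAN was low and was chosen after its values were seen. The call of HAPLN4 was lost without IMF-4d replicate 3 or IMF-8d replicate 3. ITIH4, of the heavy chain family, rose in IMF over the same interval by 1.50 (adjusted p = 0.00131). PTX3, a pentraxin that joins TSG-6 and heavy chains in the matrix, moved opposite to TNFAIP6 in IMF. It went from 67.5, 60.9 and 59.3 FPKM in IMF-4d to 2.61, 4.16 and 4.42 in IMF-8d, a change of -3.77 (SE 0.75, adjusted p = 0.000688). In BF the spread of PTX3 was wide, from 11.4 and 21.8 to 172 FPKM within BF-2d, the last in replicate 3. The ratio of TNFAIP6 to PTX3 was 0.144 to 0.176 in IMF-4d and 12.3 to 23.4 in IMF-8d.

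Of the 6 tested proteases that cut versican, 4 rose in BF within 2 days of induction, when 6.59% of all tested genes were called and 2.71% were called higher. ADAMTS4 stood at 2.7, 3.19 and 2.68 FPKM in BF-0d, 21.3, 27 and 11.1 in BF-2d, 50.9, 44.9 and 146 in BF-4d and 41.2, 110 and 59.8 in BF-8d. In IMF it was at 1.73, 1.53 and 1.77 on day 4 and at 44.7, 37.5 and 37.7 on day 8. ADAMTS4 rose by 2.35 between days 0 and 2 in BF (adjusted p = 6.25e-05) and by 3.93 between days 4 and 8 in IMF (adjusted p = 1.07e-07). It was also called in BF between days 2 and 4, by 1.84 (adjusted p = 0.00129), a call lost without BF-2d replicate 3 (adjusted p = 0.0103). Without that library the rise of ADAMTS4 between days 0 and 2 was 2.70. ADAMTS1, ADAMTS5 and ADAMTS9 also rose in BF between days 0 and 2, by 2.55, 2.09 and 1.72 (adjusted p = 7.99e-06, 7.78e-05 and 1.58e-05), and ADAMTS5 rose in IMF by 1.83 (adjusted p = 0.00157). These 3 BF calls were lost with only the compared libraries fitted, and the IMF call without IMF-0d replicate 3 or IMF-2d replicate 2. On day 4 ADAMTS4, ADAMTS5 and ADAMTS9 were lower in IMF, by -4.72, -1.74 and -1.71 (adjusted p = 5.61e-09, 0.000254 and 7.59e-06). On that day 11.3% of all tested genes were called and 4.72% were called lower. Between days 4 and 8 in BF, ADAMTS1 and ADAMTS9 fell, by 1.41 and 2.26 on the log2 scale (adjusted p = 0.00475 and 1.79e-06). Their means went from 25.1 and 22.5 to 8.52 and 3.76 FPKM. Over that BF interval 2.93% of all tested genes were called and 1.14% were called lower. The ADAMTS1 and ADAMTS9 calls were both lost with only the compared libraries fitted, and that of ADAMTS1 also without any of 4 single BF libraries. ADAMTS15, a low gene of the same list chosen after its values were seen, fell in BF over the 8 days by 1.70 (adjusted p = 4.18e-08). VCAN itself, their substrate, was called over none of these intervals.

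**Figure D4:**
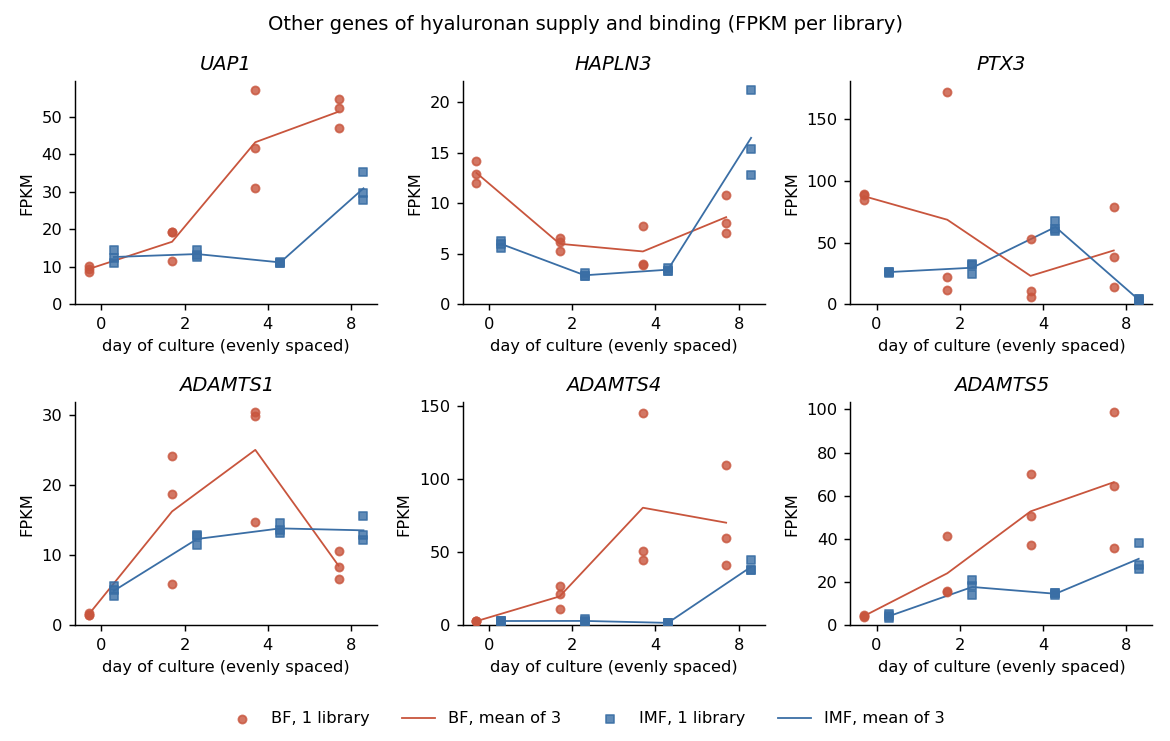
FPKM of UAP1, HAPLN3, PTX3, ADAMTS1, ADAMTS4 and ADAMTS5 (vertical axes, each panel on its own scale) on days 0, 2, 4 and 8 (horizontal axes, evenly spaced and not to scale in time), with 1 point per library, circles for BF and squares for IMF, and lines through the means of 3. In IMF between days 4 and 8 PTX3 drops to 2.61 to 4.42 FPKM while ADAMTS4 climbs to 37.5 to 44.7.

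The genes most like each member were found by Pearson's r of log2(FPKM + 1) over the 24 libraries among 7554 genes, as a description in which libraries of a group share their treatment. For TNFAIP6 they were the chemokine genes CXCL8 (r = 0.98) and CXCL2 (0.98) and PDXK, pyridoxal kinase (0.97). For CEMIP they were LRRC8D, a subunit of volume-regulated anion channels (0.95), LSAMP (0.94) and FGF10 (0.94). For CD44 they were AREG, an EGF receptor ligand (0.90), PLAUR, the urokinase receptor (0.89), and VEGFA (0.88). For HYAL2 they were HSD17B7, of cholesterol synthesis (0.95), PNPLA2, the adipose triglyceride lipase (0.93), and QARS1 (0.93). HAS2 and VCAN had looser matches, TNFSF18 (0.81), TRPS1 (0.80) and GOT2 (0.80) for HAS2 and TEX2 (0.83), BNC2 (0.81) and TOR1AIP2 (0.81) for VCAN. Between members, the r of HAS2 and CEMIP was -0.45 over the 24 libraries, 0.76 within the 12 BF and -0.56 within the 12 IMF libraries, so that the sign depended on the depot.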

How the data were processed

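Polyadenylated RNA of 24 porcine cell cultures (2 depots, 4 days, 3 replicates) had been sequenced as paired reads on a NovaSeq, aligned with HISAT2 to Sscrofa11.1 and quantified with StringTie 1.3.4d. The deposited values are FPKM per gene, in which the authors had divided out gene length and library size. The table keeps no read counts, so intervals for counting error were not computed. The sequencing yields that the study lists were not used here. The authors' DESeq2 1.6.3 needs counts and was not used here.

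Here log2(FPKM + 1) of the 16135 genes whose FPKM summed to more than 1 was fitted with limma 3.58.1 in R 4.3.3 (1 mean per group, all 24 libraries, eBayes with trend and robust). Calls used the study's limits, an adjusted p under 0.01 and an absolute log2 difference of at least 1. The fit was tested on simulated data. The members and lists were chosen with earlier results of these data known, so no p was adjusted over a list and no list supports its own direction. Named were the members, the other hyaluronan genes called in a pairwise contrast with a mean of at least 5 FPKM in a group, and the 3 genes most correlated with each member that had a mean of at least 1 FPKM in a group. UGDH, ACAN and ADAMTS15 were named after their values were seen. The results of 1 listed gene are not reported here. Symbols were matched to Ensembl IDs through the reference gene tables. WT1 was the only one of 4 mesothelial markers in the table and stayed under 1 FPKM. Positions and sequences are from RefSeq on Sscrofa11.1. Alternatives were a pseudocount of 0.1, other filters, median ratio scaling, quantile normalization, fits on the compared libraries, a replicate block and leaving out each library. The labels give no sequencing batch.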

Additional observations from a re-analysis of the deposited data

Results flagged for a closer look

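The 4 results below were picked because the test of the difference between the depots was itself called. The test for a single outlying library needs at least 4 libraries a group and was not run. The change of HAS2 from day 2 to day 4 in IMF less that in BF was -2.25 on the log2(FPKM + 1) scale (SE 0.33, limma adjusted p = 0.000432, and -2.40 without BF-2d replicate 3). Here 3 of 3 IMF-4d libraries lay below every IMF-2d library and 3 of 3 BF-4d libraries above every BF-2d library. Between days 2 and 4 the libraries did not overlap for 24.2% of all tested genes in IMF and 28.3% in BF. From day 4 to day 8 the change in IMF exceeded that in BF by 3.38 for CEMIP (SE 0.48, adjusted p = 7.06e-05), by 2.05 for TNFAIP6 (SE 0.37, adjusted p = 0.000651) and by 1.06 for HYAL2 (SE 0.16, adjusted p = 0.000155). For these 3 genes all IMF-8d libraries lay above all IMF-4d libraries, while the BF libraries overlapped for CEMIP and TNFAIP6 and were lower on day 8 for HYAL2. Between those days the libraries did not overlap for 52.9% of all tested genes in IMF and 32.2% in BF. Over the same IMF interval the summed adipocyte markers went from 11.2 to 14.1 FPKM to 96.5 to 143, carried by LPL, while CEBPA of the same list fell by 1.33 on the log2 scale (adjusted p = 0.000193) and the stromal sum went from 8279 to 8461 FPKM to 4547 to 5114. Of the stromal list COL1A1 went from a mean of 4364 to 2062 FPKM, while PDGFRA went from 144 to 226 and PDGFRB from 98.1 to 97.7. The part of these markers in the differences was not tested.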

How the results depend on the processing

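Of the 25 member contrasts called, 18 were called under all 31 alternatives. The HAS2 difference in IMF from day 2 to day 4 was called in 20 of them and in 0 of the 6 that left out a compared library. With only the compared libraries fitted, HAS2 between depots on day 2, HAS2 in the interaction from day 2 to day 4 and CEMIP in BF from day 0 to day 2 were not called. CD44 in IMF from day 4 to day 8 was 0.997 under quantile normalization, just under the limit. Of 80 contrasts not called, 12 were called under at least 1 alternative and 12 changed sign somewhere. Of those whose size was at least 0.3, the HAS2 interaction from day 0 to day 2 was the only one to do so, at -0.11 with a pseudocount of 0.1 against 0.45. The cause was not tested.

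At a pseudocount of 0.1, 28 pairs of the other hyaluronan genes were called between depots against 17. The share of all genes called at that setting was not computed. Leaving out single libraries gave 5 to 9 member calls over the intervals (main 7), 8 to 9 between depots (main 9), 3 to 7 in the interactions (main 4, with 7 without BF-2d replicate 3) and 5 to 5 from day 0 to day 8. For the other genes it gave 18 to 24 over the intervals and 14 to 23 between depots. The main fit did not pair libraries by replicate number, and whether same-numbered libraries shared a piglet could not be told. Deviations of same-numbered libraries correlated at -0.25 to 0.46, and in 0 of 12 contrasts was every pair above 0.1. With the replicate block, member calls were 6 over the intervals, 9 between depots, 4 in the interactions and 5 from day 0 to day 8, and calls of the other genes were 21 and 19. No scaling moved the median of all genes by over 0.1. With no read counts in the table, the counting error of low genes such as HAS1 and HAS3 could not be given.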
